A study of Homo sapiens with 12 samples.

Results

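The endoplasmic reticulum (ER) is where secreted and membrane proteins are made, folded and checked. A nascent chain enters through the Sec61 channel, loses its signal peptide, receives N-linked glycans and is then held by chaperones and oxidised by disulfide isomerases until it is folded. A chain that fails is led back out through a membrane ubiquitin ligase complex, pulled into the cytosol by the p97 ATPase and degraded, a route called ER-associated degradation. When unfolded proteins build up, the sensors IRE1, PERK and ATF6 raise transcription of many of these genes, a program known as the unfolded protein response. Membrane lipid composition can also engage these sensors, and phosphatidylserine, the lipid made by PTDSS1, is produced at ER membranes.

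The genes described here are 56 components of this system, taken by name from a fixed list and joined between the 2 count tables by gene identifier. They comprise 24 folding genes, 12 translocation genes and 20 degradation genes, out of 30984 genes listed for KYSE30 and 78691 listed for U138MG. Poly-A RNA-seq was carried out on 12 libraries in 4 groups of 3. Wild-type KYSE30 cells, an esophageal squamous cell carcinoma line, and wild-type cells labelled U138MG, a glioblastoma line, received 100 nM of a PTDSS1 inhibitor (PTDSS1i) or the vehicle DMSO, and all were taken at 48 h. No label states that replicates came from separate cultures, so each p-value measures the spread between these libraries, which may be technical. KYSE30 was sequenced as batch 1 and U138MG as batch 2, so line and batch cannot be told apart. Treatments were compared within a line, hence within a batch, while differences between the lines carry both.

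Library totals ran from 18800932 to 26514658 counts, and 3 counts, the upper limit that a count of 0 allows, correspond to at most 0.160 CPM (counts scaled to a library total of 1000000). This limit covers counting error only. The libraries labelled U138MG went against that label by their markers. In DMSO they held the squamous keratin KRT5 at 1469.5 ± 83.4 CPM and the epithelial cadherin CDH1 at 463 ± 2.14 CPM (SD, n = 3). The mesenchymal filament VIM was at 0.206 CPM, and OLIG2 and S100B had 0 counts. Other glial or mesenchymal markers were present, with FN1 at 75.8, SOX2 at 38.9, CDH2 at 11.9, GFAP at 2.36 and AQP4 at 2.14 CPM. The squamous keratins KRT14 and KRT6A were near 0, at 0.198 and 0.488 CPM. In KYSE30, CDH1 stood at 514 ± 25.5 CPM and TP63 at 98.2 ± 7.41, whereas KRT5 was near 0, at 0.0608 CPM. There FN1 and SOX2 were at 98.3 and 99.4 CPM under DMSO, and GFAP and AQP4 had 0 counts. Of 10 squamous epithelial markers, 8 exceeded 1 CPM in each line, and of 10 glial or mesenchymal markers 4 did in KYSE30 and 5 in U138MG. The summed squamous markers moved with treatment, from 7784–8618 to 2654–2900 CPM in U138MG and from 1066–1144 to 1346–1379 CPM in KYSE30, and the glial or mesenchymal sum went from 127–136 to 61.8–68.0 and from 189–231 to 155–160 CPM. Single markers within a sum moved in different directions. In U138MG the means of KRT15 (4861 to 458 CPM) and KRT5 (1470 to 526) fell, as did those of CDH1, DSP and TP63. Those of KRT17 (290 to 673) and EPCAM (248 to 348) rose there, as did those of DSG3 and KRT6A. In KYSE30 FN1 fell from 98.3 to 37.4 CPM, while VIM rose from 3.99 to 24.6. The part of these marker changes in the results below was not tested. In the following, U138MG means the libraries with that label. In bulk RNA, a change in the share of a cell type and a change in RNA per cell cannot be told apart.

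Unfolded protein response factors act through short promoter elements, so the windows around the members' start sites were searched for 3 of them on both strands. ERSE is CCAAT, 9 bases of any kind and CCACG, and is bound by ATF6 and XBP1 together with NF-Y. ERSE-II is ATTGG, 1 base of any kind and CCACG, and UPRE was searched as TGACGTGG. RefSeq windows on GRCh38.p14, from 250 bases before to 50 bases after each start, were found for 51 of the 56 members; PDIA3, SPCS1, DERL1, DERL3 and UFD1 had no entry. ERSE matched in 7 of the 51 members (13.7%) and in 25 of 27305 genes overall (0.0916%). ERSE-II matched in 3 members (5.88%) and 19 genes (0.0696%), and UPRE in 8 members (15.7%) and 253 genes (0.927%). Any of the 3 occurred in 17 members (33.3%), compared with 295 genes overall (1.08%). A match is a description of letters in the window, not a site that was shown to be bound.

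The 5 stretches below are shown, from the members with a match that changed by more than a log2 fold change of 1 in either line, because they let the element be read beside the gene's response. Each runs 5′ to 3′ along the gene's strand, and capitals mark the motif matches, spacer included.
HERPUD1, chr16:56932014-56932046, plus strand, 128 to 96 bases before the start, ERSE-II: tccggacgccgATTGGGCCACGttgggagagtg
HSPA5, chr9:125241380-125241420, minus strand, 77 to 37 bases before the start, ERSE: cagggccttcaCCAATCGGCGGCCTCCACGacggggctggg
HYOU1, chr11:119057263-119057404, minus strand, 199 to 58 bases before the start, UPRE and 2 ERSE-II: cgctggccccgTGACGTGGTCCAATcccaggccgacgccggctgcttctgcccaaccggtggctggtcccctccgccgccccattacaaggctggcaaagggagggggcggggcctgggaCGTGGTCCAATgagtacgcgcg
DNAJC10, chr2:182716121-182716150, plus strand, 136 to 107 bases before the start, UPRE: cgcgcacaccgCCACGTCAacctaaaccta
SSR3, chr3:156554148-156554177, minus strand, 52 to 23 bases before the start, UPRE: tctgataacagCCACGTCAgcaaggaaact
In HERPUD1 and HSPA5 the match reads in the direction of the gene. In HYOU1 both ERSE-II matches lie on the opposite strand, and the upstream one shares bases with the UPRE. The UPRE matches of DNAJC10 and SSR3 read on the opposite strand too. The DNAJC10 stretch lies within an exon of a GENCODE v29 transcript that starts further upstream.

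**Figure D1:**
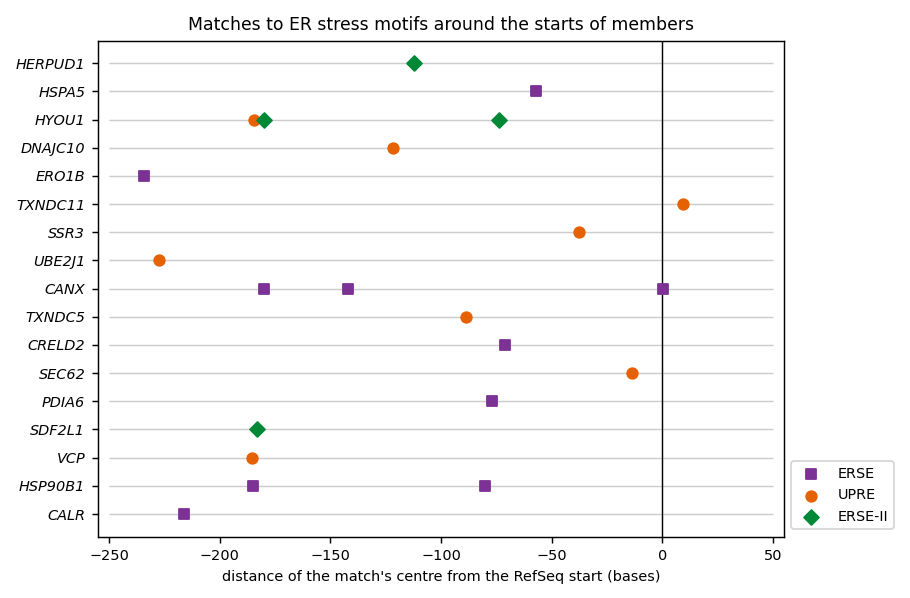
Positions of ERSE (squares), ERSE-II (diamonds) and UPRE (circles) matches, in bases from the RefSeq start (vertical line), for the 17 members with a match, ordered from top to bottom by mean log2 fold change over both lines. The 3 squares of CANX are 1 match seen from 3 annotated starts, and all matches lie between 243 bases before and 13 bases after a start.

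The members with a match had a median log2 fold change of 0.67 in U138MG, against 0.61 for the 34 members with a window and no match, and 0.091 against 0.16 in KYSE30. These are descriptions without a test. CALR, with an ERSE match, is the member that fell in U138MG, and HSPA13, DNAJB9, EDEM1 and ERO1A, all among the larger changes, had no match in their windows.

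After PTDSS1i nearly all of the 55 tested members were higher in U138MG, and those of KYSE30 were split. In U138MG, 53 of 55 tested members were higher at an adjusted p under 0.05 (edgeR quasi-likelihood test, Benjamini-Hochberg over all 17666 tested genes), CALR was lower, and OS9 did not pass. Over all genes 33.9% were higher and 33.6% lower, and the members' share higher was 96.4%. In KYSE30, 26 of 55 were higher, 10 lower and 19 did not pass, against a background of 30.1% higher and 32% lower among 16389 genes. The members' 47.3% higher exceeded that share and their 18.2% lower fell short of it. DERL3, a derlin, was not in the KYSE30 table, and it had 0 counts in all 6 U138MG libraries, which allows up to 0.157 CPM per library. Of its exon bases, 77% are shared with SMARCB1, so a count of 0 also depends on how reads in that overlap were assigned. It was not tested.

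The members' median log2 fold change was 0.61 in U138MG and 0.12 in KYSE30, where the medians of all tested genes were -0.026 and -0.025. Past a log2 fold change of 1, 14 members were higher in U138MG and 2 in KYSE30, HERPUD1 and ERO1A. By edgeR or DESeq2, 0 members were lower past that fold in either line, at any p, and the largest fall was -0.44. The backgrounds past the fold were 8.19% higher and 11.6% lower in U138MG, and 6.4% higher and 7.04% lower in KYSE30. The libraries of the 2 treatments did not overlap for 54 of 55 members in U138MG, with a background of 71.4%, and for 44 of 55 in KYSE30, with a background of 66.3%. With 3 libraries against 3, an exact permutation test on 1 gene cannot go below 0.1, so calls rest on the fit across all genes. Where the changes of a gene in both lines are given as a pair with no line named, that of U138MG comes first.

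Under scaling by library size alone, the median log2 fold change of all genes shifted by -0.10 in KYSE30 and by -0.15 in U138MG, and the KYSE30 split became 21 higher and 15 lower, from 72.2% to 58.3% of calls higher. Over all genes the share of KYSE30 calls that were higher went from 48.5% to 37.8%. In U138MG it went from 50.2% to 37.1%, with library-size and with upper-quartile scaling. Member counts given below under these scalings stand against these shifts of all genes. The distance between the members' median and that of all genes was 0.15 log2 units in KYSE30 and 0.63 in U138MG under TMM and library-size scaling. The KYSE30 calls lost as higher were MANF, SEC61A1, SEC61B, SEC62 and EDEM3, and those gained as lower were SSR2, SPCS2, STT3A, UFD1 and UBXN4. In U138MG 47 members remained higher with library-size or upper-quartile scaling, and SEC62, SSR2, SPCS1, DERL2, FAF2 and UBXN4 no longer passed. The U138MG count past a log2 fold change of 1 went from 14 to 11 under either scaling, as SEC61G, SSR3 and STT3A dropped below it.

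**Figure D2:**
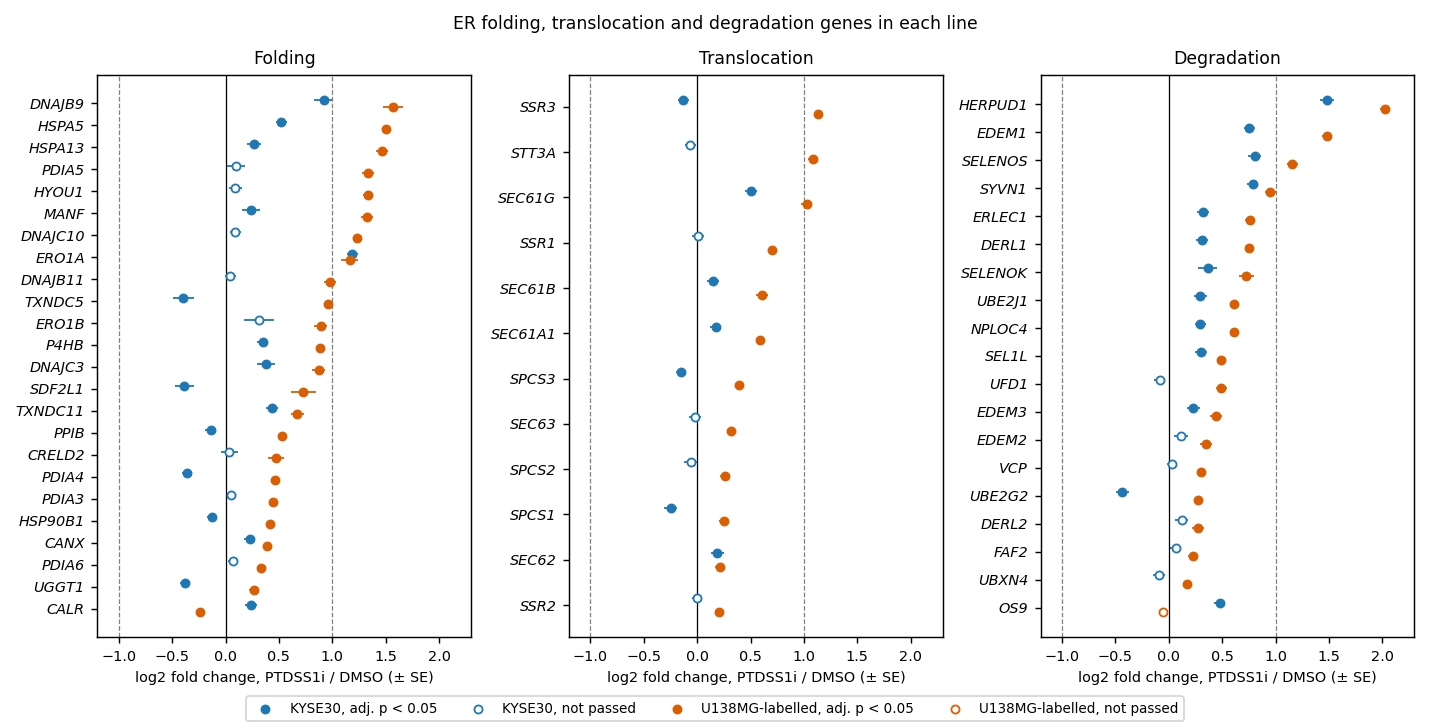
Log2 fold change of PTDSS1i over DMSO (x axis, ± SE) for each of the 55 tested members in KYSE30 (blue) and U138MG-labelled libraries (orange), by subgroup, with filled points for an adjusted p under 0.05 and dashed lines at a log2 fold change of 1 and -1. In U138MG 53 points lie to the right of 0 and filled, whereas KYSE30 has 26 filled points to the right and 10 to the left.

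The members' joint share of all counts moved accordingly. They took 0.742–0.774% of each library's counts in U138MG under DMSO and 1.05–1.06% under PTDSS1i. In KYSE30 the ranges were 0.920–0.937% and 0.988–1.00%. HSPA5 alone went from 0.0382–0.0432% to 0.102–0.107% in U138MG and from 0.0707–0.0764% to 0.0977–0.0993% in KYSE30. Translocation genes took 0.126–0.132% and then 0.171–0.174% in U138MG. In KYSE30 their share was 0.148–0.154% under DMSO and 0.144–0.148% under PTDSS1i, and the ranges overlapped.

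**Figure D3:**
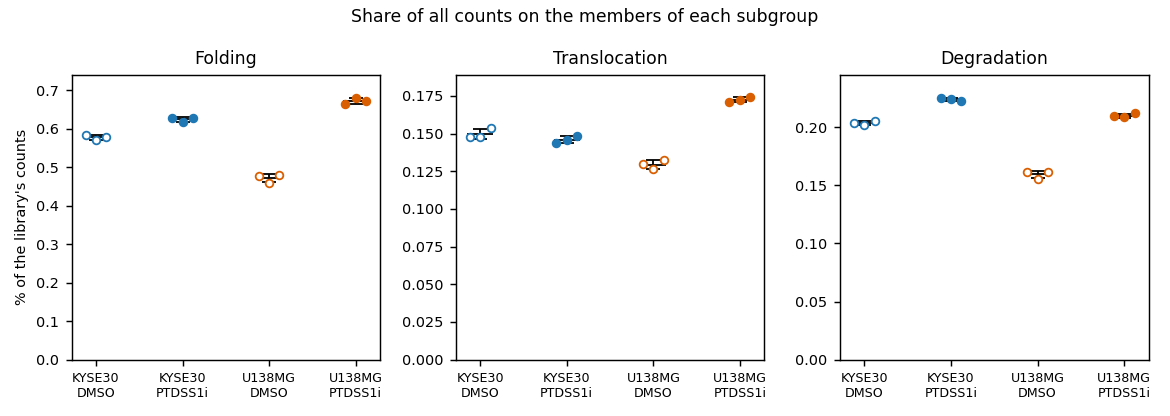
Percent of each library's counts (y axis, from 0) that fell on the folding, translocation and degradation members, with open circles for DMSO, filled circles for PTDSS1i and bars for the mean ± SD of 3 libraries. All 3 shares were higher under PTDSS1i in every U138MG library, and in KYSE30 the folding and degradation shares were higher while the translocation shares overlapped.

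Among Hsp70, Hsp90 and their partners, all 11 members rose in U138MG, with a median log2 fold change of 1.23. In KYSE30 5 rose (45.5%), 2 fell (18.2%) and 4 did not pass, with a median of 0.091 that became -0.013 under library-size scaling. Over all tested genes 33.9% were higher in U138MG, and 30.1% were higher and 32% lower in KYSE30. HSPA5 (BiP) is the main luminal Hsp70, which holds unfolded chains and keeps the stress sensors inactive. It lies at chr9:125234853-125241330 (GENCODE v29, GRCh38). In U138MG it was at 397, 364 and 409 normalized CPM in the DMSO libraries and at 1072, 1127 and 1119 in the PTDSS1i libraries. That is a log2 fold change of 1.50 ± 0.040 (SE), adjusted p = 1.11e-20, with no overlap. In KYSE30 it was at 756, 669.7 and 713, and reached 1023, 1017 and 1034, a change with a log2 fold change of 0.52 ± 0.055 (SE), adjusted p = 3.24e-08. The KYSE30 libraries began higher, and the treated levels of the 2 lines lay close together, although the tables were scaled separately. HSP90B1 (GRP94), the ER Hsp90, went from 718, 694 and 747 to 943, 989 and 954 normalized CPM in U138MG (log2 fold change 0.42 ± 0.035 (SE), adjusted p = 1.53e-11). In KYSE30 it went the other way, from 641, 615 and 643 to 579, 565 and 595 (log2 fold change -0.13 ± 0.051 (SE), adjusted p = 0.0343), a small fall whose call was lost without DMSO replicate 3 (-0.12) or without PTDSS1i replicate 1 (-0.12), 2 (-0.11) or 3 (-0.14), and with DESeq2 (-0.11).

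HYOU1 (GRP170) and HSPA13 are further Hsp70 relatives, and HYOU1 serves as a nucleotide exchange factor of HSPA5. HYOU1 stood at 70.7, 60.7 and 69 under DMSO and 169, 164 and 170.1 under PTDSS1i normalized CPM in U138MG (log2 fold change 1.33 ± 0.046 (SE), adjusted p = 4.6e-18). In KYSE30 the values 115, 98.5 and 101 under DMSO and 113, 109 and 113 under PTDSS1i overlapped (log2 fold change 0.091 ± 0.058 (SE), adjusted p = 0.178). Without KYSE30 DMSO replicate 1, the highest of these libraries, its log2 fold change of 0.17 passed the test. HSPA13 rose in both lines, from 24.3, 25.2 and 26 to 68.3, 69.5 and 71 in U138MG (log2 fold change 1.47 ± 0.053 (SE), adjusted p = 7.31e-20) and from 32.3, 32.6 and 33.9 to 39.7, 37.2 and 41.7 in KYSE30 (log2 fold change 0.27 ± 0.064 (SE), adjusted p = 0.00115).

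J-domain proteins hand substrates to HSPA5 and stimulate its ATPase. DNAJB9 (ERdj4), which also links HSPA5 to IRE1, had the largest change of any folding gene in U138MG, from 8.94, 7.6 and 7.1 to 22, 24 and 24 normalized CPM (log2 fold change 1.57 ± 0.093 (SE), adjusted p = 8.55e-15). KYSE30 showed a tight rise from 9.29, 9.33 and 9.27 to 17.2, 17.9 and 17.6 (log2 fold change 0.92 ± 0.087 (SE), adjusted p = 6.98e-09). DNAJC10 (ERdj5), a disulfide reductase with a J domain, went from 124, 125 and 124 to 286, 296 and 292 in U138MG (log2 fold change 1.23 ± 0.034 (SE), adjusted p = 1.96e-22), with DMSO libraries close together. Its KYSE30 values were 187, 183 and 183 under DMSO and 200.4, 189 and 200.4 under PTDSS1i, a log2 fold change of 0.091 ± 0.049 that did not pass (adjusted p = 0.118), although it did at 0.11 without KYSE30 DMSO replicate 1. DNAJB11 (ERdj3) had a log2 fold change of 0.98 ± 0.056 in U138MG, just inside the fold threshold, and one of 0.046 ± 0.049 in KYSE30, where it did not pass. Its exons overlap those of other genes over up to 23.2% of their length. DNAJC3 (p58IPK), an HSPA5 co-chaperone known also to restrain PERK, rose by 0.87 and 0.38 respectively on the log2 scale.

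Smaller secreted or luminal partners completed this family. MANF, a stress-induced protein that binds HSPA5, went from 28.3, 26.9 and 27.7 to 67.5, 65.9 and 74.1 normalized CPM in U138MG (log2 fold change 1.33 ± 0.056 (SE), adjusted p = 2.59e-18). Its KYSE30 libraries were at 31, 23.4 and 28 under DMSO and 33.8, 31 and 32.4 under PTDSS1i, and the highest DMSO library, at 31.03, lay just under the lowest PTDSS1i library, at 31.04. The log2 fold change was 0.24 ± 0.083 (SE), adjusted p = 0.0178. This call was lost without KYSE30 DMSO replicate 2 (0.13) or 3 (0.25) or PTDSS1i replicate 1 (0.21), and under library-size scaling (0.13) on the log2 scale. SDF2L1, which works with the J-domain proteins, moved in opposite directions. It rose from 8.74, 6.96 and 6.66 to 13.3, 11 and 12.7 in U138MG (log2 fold change 0.73 ± 0.12 (SE), adjusted p = 3.19e-06) and fell from 20.4, 16.6 and 17.2 to 13.8, 14.3 and 13.4 in KYSE30 (log2 fold change -0.39 ± 0.091 (SE), adjusted p = 0.000835). CRELD2, a further stress-induced luminal protein, rose by a log2 value of 0.47 in U138MG and changed by 0.035 in KYSE30 (adjusted p = 0.709).

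The lectin cycle, in which calnexin and calreticulin bind monoglucosylated glycoproteins, gave the main exception. CALR (calreticulin) was at 503, 469 and 493 normalized CPM under DMSO and at 406, 411 and 419.9 under PTDSS1i in U138MG, a fall with a log2 fold change of -0.24 ± 0.034 (SE), adjusted p = 3.98e-07. In KYSE30 it was at 786, 695 and 699 under DMSO and 875, 829 and 870.0 under PTDSS1i, a rise with a log2 fold change of 0.24 ± 0.057 (SE), adjusted p = 0.000944. The groups did not overlap in either line, and CALR was the only member that was higher in KYSE30 and lower in U138MG. CANX (calnexin), its membrane-bound homologue, rose in both, by 0.39 and 0.22 on the log2 scale. UGGT1, the glucosyltransferase that returns misfolded glycoproteins to the cycle, rose from 112, 113 and 118 to 132, 135 and 145 in U138MG (log2 fold change 0.26 ± 0.040 (SE), adjusted p = 1.61e-06). It fell in KYSE30, from 100.4, 96.7 and 99.6 to 76.7, 75.5 and 75.7 (log2 fold change -0.38 ± 0.051 (SE), adjusted p = 1.23e-06).

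Disulfide isomerases and their oxidases rose throughout in U138MG, 10 of 10 with a median of 0.78 on the log2 scale. KYSE30 had 3 higher, 3 lower and 4 that did not pass, and the median log2 fold change of 0.080 became -0.025 under library-size scaling. The KYSE30 shares, 30% higher and 30% lower, were near those of all tested genes, 30.1% and 32%. ERO1A, the oxidase that recharges protein disulfide isomerase, roughly doubled in both lines. Its values were 125, 118 and 124 under DMSO and 278, 271 and 285 under PTDSS1i normalized CPM in KYSE30 (log2 fold change 1.19 ± 0.051 (SE), adjusted p = 1.28e-14). In U138MG they were 192, 221 and 204 under DMSO and 477, 488 and 418 under PTDSS1i (log2 fold change 1.16 ± 0.080 (SE), adjusted p = 3.04e-05). The paralogue ERO1B was scarce in KYSE30, with a change with a log2 fold change of 0.32 ± 0.14 (SE), adjusted p = 0.0602, which passed at 0.38 without DMSO replicate 2, and it rose by 0.89 in U138MG. P4HB (PDI), the most abundant isomerase by counts in KYSE30, rose by 0.35 there and by 0.88 in U138MG on the log2 scale.

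PDIA5, a further member of the disulfide isomerase family, went from 25.9, 24 and 23.8 to 61.3, 62.6 and 61.5 normalized CPM in U138MG (log2 fold change 1.33 ± 0.055 (SE), adjusted p = 1.7e-18), while 15.4, 14.7 and 17.3 under DMSO and 17.6, 16.5 and 16.6 under PTDSS1i overlapped in KYSE30 (log2 fold change 0.094 ± 0.085 (SE), adjusted p = 0.352). PDIA4 (ERp72), an isomerase with 3 thioredoxin-type active sites, rose from 148, 137.8 and 144 to 198, 192 and 204 in U138MG (log2 fold change 0.47 ± 0.037 (SE), adjusted p = 6.4e-12). It fell from 205, 194 and 194 to 157, 151 and 154 in KYSE30 (log2 fold change -0.36 ± 0.050 (SE), adjusted p = 1.69e-06). TXNDC5 (ERp46) moved in opposite directions. It was at 134, 126 and 136 under DMSO and 246, 255 and 269.8 under PTDSS1i in U138MG (log2 fold change 0.96 ± 0.039 (SE), adjusted p = 1.61e-18), and at 13.5, 14.1 and 11.9 under DMSO and 10.5, 9.48 and 9.87 under PTDSS1i in KYSE30, a fall with a log2 fold change of -0.40 ± 0.098 (SE), adjusted p = 0.0014. Most of its exon bases, 60.6%, are shared with the read-through gene BLOC1S5-TXNDC5, so its counts depend on how such reads were assigned.

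PPIB (cyclophilin B), a proline isomerase, went from 111, 109.6 and 109 to 156, 159 and 162 normalized CPM in U138MG (log2 fold change 0.53 ± 0.036 (SE), adjusted p = 1.5e-13). In KYSE30 it went from 246, 219.6 and 218 to 207, 207 and 206 (log2 fold change -0.14 ± 0.054 (SE), adjusted p = 0.0294), a fall whose call was lost without DMSO replicate 1 (-0.075), without PTDSS1i replicate 1, 2 or 3 (-0.14, -0.14 and -0.13) and with DESeq2 (-0.12). Its exons overlap those of SNX22 over 27.2% of their length. PDIA3 (ERp57), the partner of calnexin and calreticulin, rose by 0.44 in U138MG and PDIA6 (P5) by 0.33 on the log2 scale. Their KYSE30 log2 fold changes, 0.053 and 0.067, did not pass, although that of PDIA6 did at 0.11 with both lines fitted together. The exons of PDIA3 and PDIA6 overlap those of other genes too, over up to 33.3% and 25.2% of their length. TXNDC11, a thioredoxin-domain protein of the degradation pathway, rose in both lines, by 0.67 and 0.43 on the log2 scale.

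At the Sec61 channel, through which chains enter the ER, all 5 genes rose in U138MG, where library-size or upper-quartile scaling left 4. In KYSE30 4 of 5 rose, and library-size scaling left 1. Over all tested genes 33.9% were higher in U138MG and 30.1% in KYSE30. SEC61G, the gamma subunit, was at 37, 36.2 and 40.6 under DMSO and 77.2, 78.5 and 76.5 under PTDSS1i normalized CPM in U138MG (log2 fold change 1.03 ± 0.050 (SE), adjusted p = 9.95e-17). In KYSE30 it was at 145, 131 and 148 and reached 188, 205 and 209 (log2 fold change 0.50 ± 0.057 (SE), adjusted p = 9.44e-08). Its U138MG change sits at the fold threshold, with a log2 fold change of 0.99 without DMSO replicate 2 and 0.88 under library-size or upper-quartile scaling. SEC61A1, the channel itself, rose by 0.59 and 0.18 in U138MG and KYSE30 on the log2 scale. SEC61B, the beta subunit, rose by 0.61 and by 0.15, and the KYSE30 call was lost without DMSO replicate 2 (0.12) or 3 (0.14) and without PTDSS1i replicate 1 (0.11) or 2 (0.15) on the log2 scale. SEC62 and SEC63, which serve post-translational import, had log2 fold changes of 0.21 and 0.31 in U138MG and of 0.19 and -0.022 in KYSE30, where SEC63 did not pass.

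Of the 7 members in the translocon-associated protein complex, oligosaccharyltransferase and signal peptidase, 0 were higher in KYSE30, against 30.1% of all tested genes. This held by edgeR, at an unadjusted p under 0.05 too, and by DESeq2. By edgeR 3 were lower there, and all 7 were higher in U138MG, against 32% and 33.9% of all tested genes. SSR2 and SPCS1 no longer passed in U138MG under library-size or upper-quartile scaling. Among subunits outside the members, SSR4, RPN1, DAD1, OST4 and MAGT1 rose in KYSE30, by 0.25, 0.13, 0.30, 0.39 and 0.25 on the log2 scale. RPN2 and DDOST fell (-0.18 and -0.22), and SEC11A, SEC11C, OSTC, STT3B, TUSC3, KRTCAP2 and TMEM258 did not pass. SSR3 (TRAP gamma) went from 107, 107 and 106 to 224, 229.6 and 248 normalized CPM in U138MG (log2 fold change 1.13 ± 0.039 (SE), adjusted p = 2.58e-20). It went from 128, 119.9 and 134 to 116, 115 and 117 in KYSE30, a fall with a log2 fold change of -0.13 ± 0.052 (SE), adjusted p = 0.0359. That call was lost without DMSO replicate 3 (-0.094), without PTDSS1i replicate 1, 2 or 3 (-0.13, -0.12 and -0.13) and with DESeq2 (-0.11) on the log2 scale. SSR1 and SSR2, the alpha and beta subunits, rose by 0.70 and 0.21 in U138MG, and their KYSE30 changes of 0.0042 and -0.0026, likewise log2 fold changes, did not pass.

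STT3A, a catalytic subunit of the oligosaccharyltransferase that glycosylates chains as they enter, rose past the fold in U138MG. Its values there were 66.7, 62.5 and 66.5 under DMSO and 135, 134 and 146 under PTDSS1i normalized CPM (log2 fold change 1.09 ± 0.044 (SE), adjusted p = 9.54e-19), which library-size and upper-quartile scaling put at 0.94. In KYSE30 133, 132 and 127 under DMSO and 124, 119.8 and 131 under PTDSS1i overlapped (log2 fold change -0.066 ± 0.052 (SE), adjusted p = 0.278). SPCS1 rose from 58.3, 53.6 and 53.3 to 63.7, 66.7 and 65.9 in U138MG (log2 fold change 0.25 ± 0.048 (SE), adjusted p = 4.55e-05) and fell from 59, 52.3 and 57.5 to 48.2, 46 and 47.9 in KYSE30 (log2 fold change -0.25 ± 0.060 (SE), adjusted p = 0.00119). Of its exon bases, 58.1% are shared with GLT8D1 and NEK4. SPCS3 went from 122, 114 and 117 to 154, 157 and 151 in U138MG (log2 fold change 0.39 ± 0.037 (SE), adjusted p = 3.02e-10) and from 131, 129 and 135 to 118, 117 and 120.2 in KYSE30 (log2 fold change -0.15 ± 0.049 (SE), adjusted p = 0.0102), the latter call lost without PTDSS1i replicate 2 (-0.14). SPCS2 rose by 0.26 in U138MG, and its KYSE30 log2 fold change of -0.059 did not pass.

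**Figure D4:**
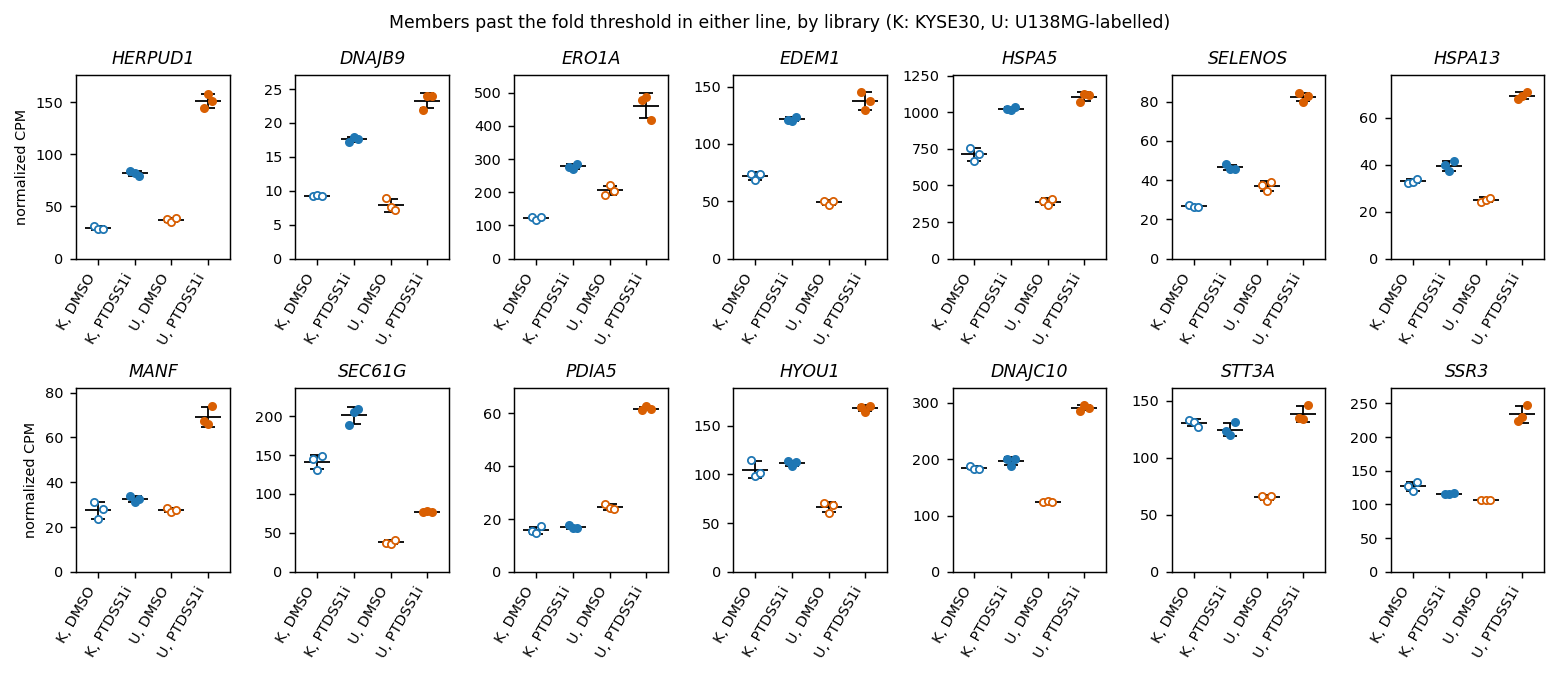
Normalized CPM (y axis, from 0) in each of the 12 libraries for the 14 members that changed past a log2 fold change of 1 in either line, with open circles for DMSO, filled circles for PTDSS1i and bars for the mean ± SD of 3 libraries. The U138MG groups are separate in all 14 panels, and in KYSE30 the groups of HYOU1, PDIA5 and STT3A overlap.

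Degradation was the subgroup with the highest median in KYSE30, 0.29, with 12 of 19 tested members higher (63.2%) and 1 lower (5.26%). In U138MG 18 of 19 rose, and library-size or upper-quartile scaling left 15. Over all tested genes 30.1% were higher and 32% lower in KYSE30, and 33.9% were higher in U138MG. In the membrane ligase complex, 9 of 9 rose in U138MG and 7 of 9 in KYSE30. Library-size or upper-quartile scaling left 8 of 9 in U138MG. HERPUD1 (HERP), a scaffold of that complex, had the largest change of all members in both lines. It was at 38, 35 and 38.4 normalized CPM under DMSO and 144, 158 and 151 under PTDSS1i in U138MG (log2 fold change 2.03 ± 0.047 (SE), adjusted p = 2.27e-24). In KYSE30 it went from 31.6, 28.4 and 27.9 to 84, 82 and 79.5 (log2 fold change 1.48 ± 0.062 (SE), adjusted p = 9.37e-15). HERPUD1 and ERO1A are the 2 members past the fold in both lines.

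SELENOS (VIMP), a selenoprotein that recruits p97 to the derlins, rose from 37.5, 34.5 and 39 to 84.3, 80.0 and 83.1 normalized CPM in U138MG (log2 fold change 1.16 ± 0.051 (SE), adjusted p = 7.43e-18). Its KYSE30 libraries rose from 27.3, 26.1 and 26.5 to 48.2, 45.8 and 45.7 (log2 fold change 0.81 ± 0.062 (SE), adjusted p = 2.53e-10). SYVN1 (HRD1), the ubiquitin ligase itself, rose by 0.95 in U138MG and 0.79 in KYSE30 on the log2 scale. Its adaptor SEL1L rose by 0.49 and 0.30, and the selenoprotein SELENOK by 0.72 and 0.36 on the log2 scale. DERL1, a derlin of the exit channel, rose by 0.75 and 0.31 on the log2 scale. DERL2 rose by 0.27 in U138MG and its 0.12 in KYSE30 did not pass, but did at 0.16 without DMSO replicate 1 on the log2 scale.

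Ubiquitin-conjugating enzymes supply the ligases. UBE2J1, anchored in the ER membrane, rose in both lines, by 0.61 and 0.29 on the log2 scale. UBE2G2, a soluble partner of ER ligases, went from 101, 85.4 and 93.4 to 68.7, 68.3 and 69.5 normalized CPM in KYSE30, which is the largest fall of any member (log2 fold change -0.44 ± 0.059 (SE), adjusted p = 1.46e-06). In U138MG it rose from 83.6, 82.4 and 86.7 to 104, 100.1 and 102 (log2 fold change 0.28 ± 0.040 (SE), adjusted p = 7.21e-07).

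EDEM1 led the lectins that pick out glycoproteins for degradation. It went from 50.4, 46.6 and 50.3 to 145, 129.7 and 137 normalized CPM in U138MG (log2 fold change 1.49 ± 0.047 (SE), adjusted p = 3.79e-21) and from 73.9, 68.3 and 74 to 121, 120.4 and 124 in KYSE30 (log2 fold change 0.75 ± 0.053 (SE), adjusted p = 5.16e-11). Its relatives EDEM2 and EDEM3, likewise involved in mannose trimming, changed by 0.35 and 0.44 in U138MG on the log2 scale. In KYSE30 EDEM3 rose by 0.23 and the 0.12 of EDEM2 did not pass, but did without DMSO replicate 2 (0.16) on the log2 scale. ERLEC1, a lectin of the ligase complex, rose by 0.76 and 0.32 on the log2 scale. OS9, with the same role, rose by a log2 value of 0.48 in KYSE30 (adjusted p = 5.88e-08) and changed by -0.059 in U138MG (adjusted p = 0.15). It passed as lower there under library-size scaling (-0.21), upper-quartile scaling (-0.20) and a minimum of 10 counts in every library (-0.082) on the log2 scale.

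Genes of extraction by p97 rose in U138MG, 5 of 5 with a median log2 fold change of 0.30. Library-size and upper-quartile scaling each left 3 of 5 there, with medians of 0.154 and 0.155. In KYSE30 1 of 5 rose (20%), against 30.1% of all tested genes. The KYSE30 median of 0.029 became -0.075 under library-size scaling. VCP, the p97 ATPase, rose by 0.30 in U138MG, and its cofactors NPLOC4 and UFD1 by 0.61 and 0.49 on the log2 scale. FAF2 and UBXN4, which tether p97 to the ER, rose by 0.22 and 0.17 on the log2 scale. Of these, NPLOC4 alone rose in KYSE30, by 0.29, and VCP, UFD1, FAF2 and UBXN4 had log2 fold changes of 0.029, -0.086, 0.066 and -0.092, none of which passed. UFD1 did pass as lower without KYSE30 DMSO replicate 2 (-0.13) on the log2 scale.

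The difference between the lines was tested directly, as the line by treatment interaction over 18405 genes in a joint fit of all 12 libraries. That fit was scaled and filtered anew, so its differences need not equal those between the changes printed above. The change was more positive in U138MG for 44 of 55 members and more negative for 2, CALR and OS9, with backgrounds of 25.5% and 24.4%. The largest differences in log2 fold change were those of TXNDC5 (1.32, adjusted p = 3.38e-13), SSR3 (1.22, adjusted p = 7.88e-16), PDIA5 (1.20, adjusted p = 9.78e-12) and HYOU1 (1.20, adjusted p = 3.63e-13). CALR differed by -0.52, adjusted p = 9.83e-08, and OS9 by -0.58, adjusted p = 2.83e-09. Under upper-quartile scaling, which shifted the median log2 difference of all genes by -0.10, 36 members were more positive in U138MG. Over all genes the more positive calls went from 4701 to 3887 under that scaling, and the more negative ones from 4487 to 5479.

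For 9 members the difference did not pass. ERO1A differed by -0.060 (95% interval -0.22 to 0.10), SEC62 by -0.015 (95% interval -0.17 to 0.14) and SYVN1 by 0.13 (95% interval -0.019 to 0.27) on the log2 scale. FAF2 differed by 0.12 (95% interval -0.021 to 0.26), DERL2 by 0.11 (95% interval -0.060 to 0.29) and CANX by 0.12 (95% interval -0.00086 to 0.25) on the log2 scale. The intervals of SEL1L, 0.15 (95% interval 0.015 to 0.29), EDEM2, 0.19 (95% interval 0.012 to 0.38), and EDEM3, 0.17 (95% interval 0.0075 to 0.34), lie above 0 log2 units before correction for the number of genes tested. A p that misses the threshold does not show that the lines responded alike. The difference passed for SEL1L without KYSE30 DMSO replicate 1 (0.16), for CANX and FAF2 without KYSE30 DMSO replicate 2 (0.14 and 0.15) and for EDEM3 without U138MG DMSO replicate 3 (0.21) on the log2 scale. Counted by call, 24 members rose in both lines and none fell in both, 10 fell in KYSE30 and rose in U138MG, and CALR did the reverse. The share of all genes with each such pair of calls was not counted, so these numbers are descriptions without a background. Across the 55 members, which are not independent replicates, the 2 sets of changes had a Pearson r of 0.55 and a Spearman rho of 0.46.

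**Figure D5:**
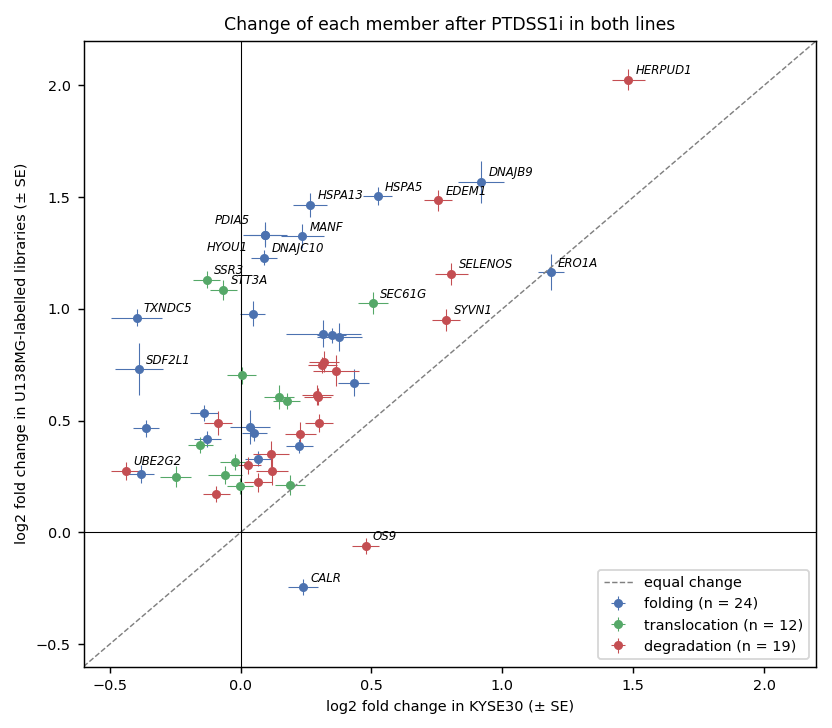
Log2 fold change of each of the 55 tested members in KYSE30 (x axis) against U138MG-labelled libraries (y axis), both ± SE, coloured by subgroup, with a dashed line of equal change. Most members lie above the line, 10 lie at the upper left with a call in both lines, ERO1A lies close to the line, and CALR and OS9 lie at the lower right.

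Levels between genes were compared within each line as normalized CPM per kb of exon. CALR had rank 1 of 55 under DMSO in both lines, at 382 in KYSE30 and 257 in U138MG. After PTDSS1i it had rank 1 in KYSE30 (451) and rank 4 in U138MG (217). HSPA5 moved from rank 8 to rank 2 in U138MG (99.8 to 283 per kb) and from rank 6 to rank 3 in KYSE30 (182 to 262 per kb). HSP90B1 took rank 1 in U138MG at 336 per kb. DNAJB9 was the lowest in U138MG at 2.90 per kb under DMSO, and ERO1B the lowest in KYSE30 at 0.931 per kb. The largest folding change in U138MG, that of DNAJB9, thus belonged to its lowest-ranked member.

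The neighbouring genes of the same pathways, a list of 116 others, were less uniform. Of 115 tested in U138MG, 70 were higher (60.9%) and 21 lower (18.3%), with a median log2 fold change of 0.24. Over all tested genes 33.9% were higher and 33.6% lower there. The other degradation genes were 42.5% higher and 27.5% lower, with a median of 0.084. The other folding genes were 66.7% higher and 15.4% lower (median 0.33), and the other translocation genes 75% and 11.1% (median 0.40). Of 113 in KYSE30, 42 were higher (37.2%) and 30 lower (26.5%), with a median of 0.061 on the log2 scale. Over all tested genes 30.1% were higher and 32% lower there. The other folding genes leaned down, with 24.3% higher and 43.2% lower (median -0.041). The other translocation genes were 36.1% higher and 25% lower (median 0.063), and the other degradation genes 50% and 12.5% (median 0.14). Among those with a mean of at least 5 normalized CPM, the largest rises in U138MG were those of SRPRA, the signal recognition particle receptor, at 53.4 ± 3.25 in DMSO and 157 ± 5.98 in PTDSS1i normalized CPM (SD, n = 3; log2 fold change 1.56 ± 0.045 (SE), adjusted p = 4.04e-22), and PDIA2, at 4.86 ± 0.325 in DMSO and 13.3 ± 1.61 in PTDSS1i (log2 fold change 1.44 ± 0.12 (SE), adjusted p = 1.74e-11). The largest falls at that level were those of TXNDC16 (log2 fold change -0.81 ± 0.077 (SE), adjusted p = 2.41e-10) and TMEM129, a ligase of ER-associated degradation (log2 fold change -0.63 ± 0.083 (SE), adjusted p = 1.68e-07). By the same rule, in KYSE30 QSOX1, a sulfhydryl oxidase, was at 153 ± 7.25 in DMSO and 347 ± 11.2 in PTDSS1i normalized CPM (log2 fold change 1.18 ± 0.053 (SE), adjusted p = 2.64e-14), and MAN1A1, a mannosidase, rose too (log2 fold change 0.89 ± 0.10 (SE), adjusted p = 1.05e-05). UBXN8, a p97 adaptor, and FKBP10, a proline isomerase of collagen folding, fell (log2 fold change -1.07 ± 0.15 (SE), adjusted p = 3.56e-06, and log2 fold change -0.66 ± 0.050 (SE), adjusted p = 2.11e-10).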

How the data were processed

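Poly-A RNA-seq libraries (TruSeq RNA v2, a kit that does not mark strand) were made from KYSE30 and U138MG cells. The deposited values are raw counts per gene, 1 table per line, which the authors made with Trimmomatic, STAR and featureCounts on hg38 according to the submitters' processing notes. Versions, annotation and strand setting are not given in the sources used here, so it is unknown whether reads of overlapping genes were assigned to either gene or left out. The labels give the same growth medium for both lines, whereas the methods give another for U138MG.

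Groups came from the labels. Each line was fitted alone with edgeR 4.0.16 in R 4.3.3 (TMM scaling, genes kept by filterByExpr at a minimum count of 10 and total of 15, robust quasi-likelihood fit, treatment as the term), with Benjamini-Hochberg adjustment over all tested genes and calls at 0.05 or past a log2 fold change of 1. The biological coefficient of variation was 0.0549 in KYSE30 and 0.0452 in U138MG. The interaction was fitted over the 18405 genes that passed the filter, out of 30358 shared by both tables. Normalized CPM are counts scaled to a TMM-adjusted library total of 1000000. Counts of replicates differed by at least 2.29 times the sampling variance, so none was a duplicate. Same-numbered libraries of the 2 treatments had correlations of deviations of at most 0.0754, so the numbers were not taken to pair samples. In KYSE30 the same-numbered correlations, 0.0754, 0.0721 and 0.0204, were above all others between the treatments. The labels state no pairing, so whether samples were paired is unknown. The fits were tested on simulated counts.

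Members, lists and tests were chosen with earlier results of these data known. Values in every library are given for members past the fold in either line, members with opposite calls in the 2 lines, and the largest rise and fall of each subgroup and line; other pathway genes are named as the 2 largest changes in each line and direction at a mean of at least 5 normalized CPM. Promoter windows are RefSeq's on GRCh38.p14; gene positions and exon lengths are GENCODE v29's (basic transcripts for lengths). Carboxy-terminal protein ends were planned and are not shown. Alternatives were library-size and upper-quartile scaling, DESeq2 1.42.0, other count filters, a replicate block, leaving out each library, and a joint fit of both lines.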

Additional observations from a re-analysis of the deposited data

Results flagged for a closer look

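For 46 of the 55 tested members the change after PTDSS1i differed between U138MG-labelled and KYSE30 libraries by the interaction test of edgeR at an adjusted p under 0.05 over 18405 genes. Values below are the log2 fold change in U138MG minus that in KYSE30, both as estimated in the joint fit of all 12 libraries. They can differ from the differences between the changes printed above, which came from a separate fit of each line. Line and batch cannot be told apart in these differences.

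Among Hsp70, Hsp90 and partners the differences were 0.94 for HSPA5, 0.51 for HSP90B1, 1.20 for HYOU1, 1.16 for HSPA13, 0.61 for DNAJB9, 0.89 for DNAJB11, 0.46 for DNAJC3, 1.10 for DNAJC10, 1.08 for SDF2L1, 0.40 for CRELD2 and 1.05 for MANF. In the lectin cycle they were -0.52 for CALR and 0.60 for UGGT1. The isomerases and oxidases gave 0.35 for PDIA3, 0.79 for PDIA4, 1.20 for PDIA5, 0.22 for PDIA6, 0.50 for P4HB, 1.32 for TXNDC5, 0.20 for TXNDC11, 0.54 for ERO1B and 0.63 for PPIB.

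The translocation genes gave 0.37 for SEC61A1, 0.42 for SEC61B, 0.48 for SEC61G, 0.30 for SEC63, 0.66 for SSR1, 0.17 for SSR2, 1.22 for SSR3, 0.46 for SPCS1, 0.28 for SPCS2, 0.50 for SPCS3 and 1.11 for STT3A. In degradation they were 0.51 for HERPUD1, 0.40 for DERL1, 0.31 for SELENOS, 0.32 for SELENOK, 0.28 for UBE2J1, 0.67 for UBE2G2, 0.69 for EDEM1, -0.58 for OS9, 0.41 for ERLEC1, 0.23 for VCP, 0.27 for NPLOC4, 0.54 for UFD1 and 0.23 for UBXN4.

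Upper-quartile scaling ended the difference calls of PDIA6 (0.11), TXNDC11 (0.087), SSR2 (0.061), SPCS2 (0.16), SELENOK (0.21), UBE2J1 (0.17), VCP (0.12) and UBXN4 (0.11). The call of TXNDC11 was also lost with DESeq2 (0.19), with no filter beyond 1 count in any library (0.21) and with at least 10 counts in every library (0.16). It was lost without KYSE30 DMSO replicate 1 (0.16) or 2 (0.18), without KYSE30 PTDSS1i replicate 2 (0.16) or 3 (0.18), without U138MG DMSO replicate 1 (0.21), 2 (0.19) or 3 (0.17) and without U138MG PTDSS1i replicate 2 (0.19) or 3 (0.14). That of SSR2 was lost without KYSE30 PTDSS1i replicate 2 (0.13), U138MG DMSO replicate 2 (0.15) or U138MG PTDSS1i replicate 2 (0.15), and that of SELENOK without KYSE30 DMSO replicate 3 (0.25).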

How the results depend on the processing

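No called value changed sign under any alternative run. Of the counts and medians, the KYSE30 median of 0.12 became 0.016 with library-size scaling, 0.097 with upper-quartile scaling and 0.16 with both lines fitted together, and leaving out 1 library gave 0.11 to 0.16. The KYSE30 counts were 24 to 29 higher and 6 to 11 lower over the fits without 1 library, with 6 lower without PTDSS1i replicate 2. DESeq2 gave 26 higher and 7 lower, and both lines fitted together gave 32 and 7, adding HYOU1, DNAJC10, PDIA6, ERO1B, DERL2 and EDEM2 as higher and losing HSP90B1, PPIB and SSR3 as lower. In U138MG the median of 0.61 became 0.46 under both scalings, and the count of lower members became 2 with library-size scaling, upper-quartile scaling and a minimum of 10 counts in every library, OS9 being added. It stayed at 53 higher and 1 lower in each fit without 1 library. SSR3 fell just under the fold threshold under library-size and upper-quartile scaling (0.98 and 0.99), and DNAJB11 passed it without DMSO replicate 1 (1.05) or PTDSS1i replicate 2 (1.01) and TXNDC5 without PTDSS1i replicate 1 (1.00). The replicate block, with numbers that were not taken to pair the samples, gave 27 higher and 10 lower members in KYSE30, 53 and 1 in U138MG, and 45 and 2 for the difference between lines. Depth limits DERL3, at 0 counts in U138MG, to an upper bound. The cause of these shifts was not tested.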
